A study of Mus musculus with 16 samples.

Results

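The genes described here carry, tune or pass on the signal of the B cell receptor. Of the 33 genes in this set, 31 had at least 1 probe set whose platform annotation gives that gene alone, out of 18193 genes named in this way on the array. Lyn, a receptor-proximal kinase, and Itpr1, a calcium release channel, had no such probe set in the annotation used and were not analysed here. The 31 measured members held 72 probe sets, 21 of them had more than 1, and a gene's values are those of the probe set brightest on average across the 16 arrays. No difference between groups was used in this choice, but the MM arrays enter the mean. A probe set that falls in MM is thus less likely to be the one chosen, as for Nfatc1 below. Intensities belong to a probe set, so levels were compared between groups for a gene and never between genes.

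The arrays fall into 3 groups, all on the C57BL/6 background. Wild-type B cells (n = 5) were B220-positive spleen cells of nontransgenic mice at 20 weeks of age. Eμ-xbp-1s B cells (n = 5), the transgenic B cells below, were the same bead-selected fraction of mice of the same age that carry the mouse cDNA of the spliced form of Xbp1, with a membrane-anchored GFP behind it, under an immunoglobulin VH promoter and the Eμ enhancer. Both act in B lineage cells from early stages on, the enhancer in part of the T lineage too, and the labels do not name the founder line behind each array. Eμ-xbp-1s MM (n = 6) were total RNA samples of myeloma tumors that arose in the transgenic mice, with no cell selection named for them. Neither labels nor methods give the age and tissue of each tumor, so age, tissue, cell isolation and tumor cannot be told apart in the comparisons with MM. They do not state either whether each MM sample was from a different mouse, and p-values measure the spread between samples, which may be technical. Xbp1 itself, by its brightest probe set, ran from 1802 to 2452 in wild-type, from 2040 to 3108 in transgenic B cells and from 1477 to 4979 in MM. None of its 4 tested probe sets passed limma in any comparison. The paper reports more spliced xbp-1s transcript by RT-PCR, and more of its protein, in spleen B cells of younger transgenic mice. Whether the array's Xbp1 probe sets read the transgene transcript was not tested.

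The B cell receptor is a membrane immunoglobulin paired with the signal chains Cd79a and Cd79b. Antigen binding leads Src family kinases to phosphorylate these chains, after which Syk and Btk, held together by adaptors such as Blnk, activate Plcg2, PI3-kinase and exchange factors, and calcium, NFAT and NF-κB follow. Inhibitory receptors and phosphatases set the threshold of this cascade, and plasma cells, which secrete antibody, are known to lower much of it.

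Most members were lower in transgenic B cells than in wild-type B cells, and lower again in MM, with few of the single differences past the test. On the log2 scale, 27 of 31 differences lay below 0 in transgenic against wild-type B cells (median -0.50), 27 in MM against transgenic B cells (median -0.90) and 26 in MM against wild-type B cells (median -1.32). The median over all named genes tested was -0.02, 0.01 and 0.01. The 3 comparisons share arrays and are not independent of one another. By limma at an adjusted p under 0.01, with adjustment over all probe sets tested, Fyn was higher and Siglecg lower in transgenic B cells, and 29 members did not pass. With same-numbered arrays of these groups taken as pairs, which no label states, Cd72 and Blk were lower as well. Cd72 and Bank1 were lower in MM than in transgenic B cells. Cd37, Cd72, Siglecg, Blk, Syk, Btk, Bank1 and Malt1, 8 of 31, were lower in MM than in wild-type B cells, and no member was higher in either comparison of MM, where none was higher even at an unadjusted p under 0.05. At that unadjusted level, 16, 16 and 20 members were lower in the 3 comparisons, where 6.98%, 15% and 17.7% of all named genes were lower and 12%, 12.1% and 16.7% higher. The lower member count in transgenic B cells fell from 1 to 0 without wild-type replicate 1, 2 or 5 or transgenic replicate 4. Over all probe sets, the lower calls there fell from 99 to between 40 and 60. The lower member count of MM against transgenic B cells fell from 2 to 1 without transgenic replicate 1, 2, 4 or 5 or MM replicate 1, 2 or 4. It rose to 6 without MM replicate 3. Over all probe sets, the lower calls fell from 423 to between 136 and 250 in the first case and rose to 737 in the second.

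These counts are read against all named genes, each by its brightest probe set. In transgenic against wild-type B cells, 0.192% of the 10436 genes tested were lower and 3.28% higher by the same call. In MM against transgenic B cells, 1.67% of 11241 were lower and 1.49% higher, and in MM against wild-type B cells, 4.76% of 11079 were lower and 4.66% higher. The intensities of 8 members in transgenic B cells lay below every wild-type array and those of 1 above, where 2.3% and 6.54% of all genes did so. In MM, 5 members lay below every transgenic B cell array and none above, against 4.15% and 4.29% of all genes. Below every wild-type array were 15 members on all MM arrays and none was above, against 8.77% and 7.38% of all genes.

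**Figure D1:**
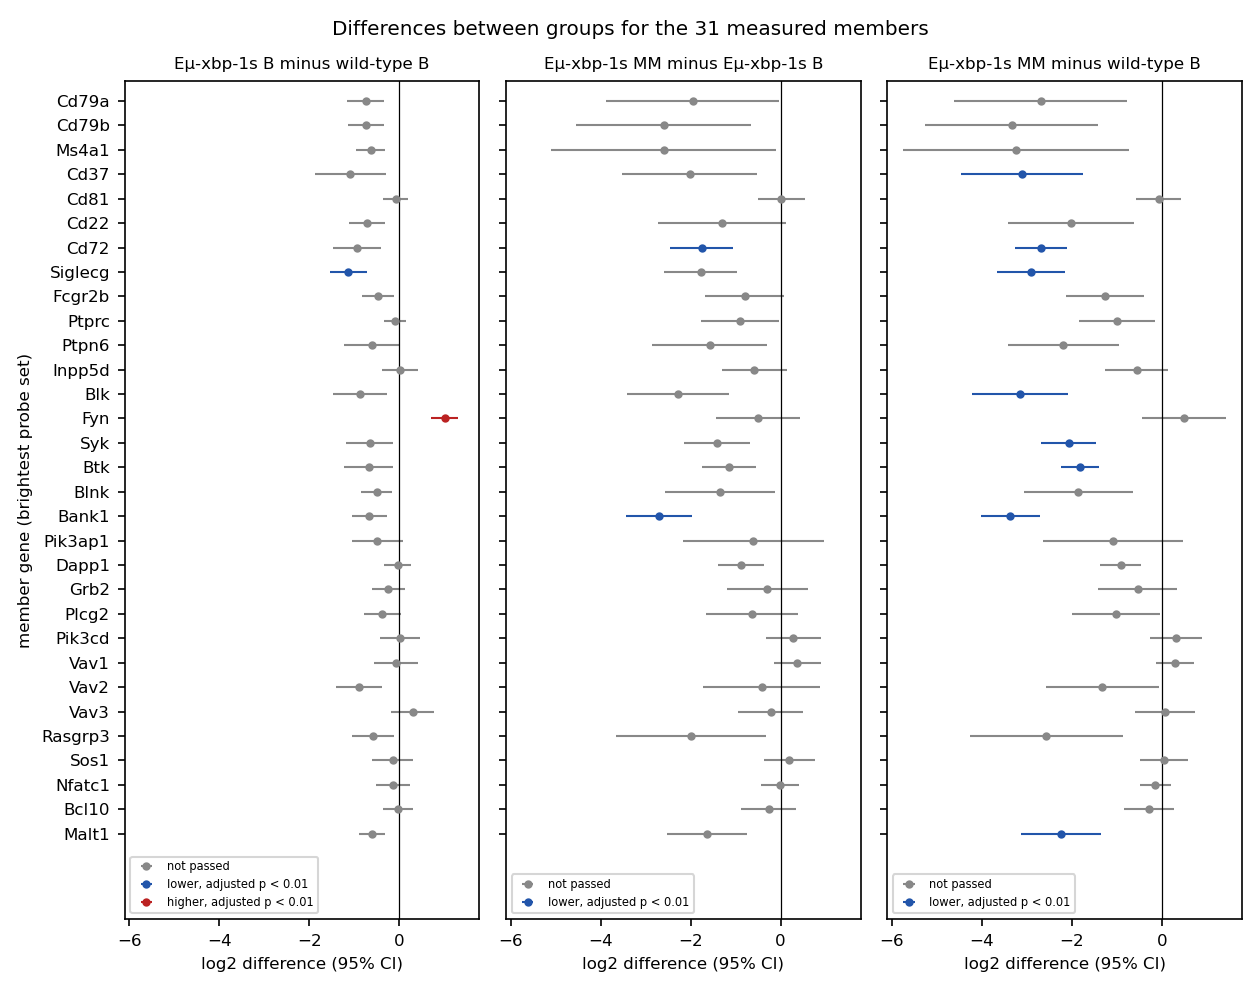
Log2 difference between groups for each of the 31 members (brightest probe set, horizontal axis in log2 units), with the 95% confidence interval from limma as a bar, 1 panel per comparison. Blue and red points passed an adjusted p under 0.01: Siglecg and Fyn in the first panel, Cd72 and Bank1 in the second, and 8 lower members in the third, where the intervals of Cd79a, Cd79b and Ms4a1 are among the widest.

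The replicates were not equally tight. The median standard deviation of a member over the arrays of a group, on the log2 scale, was 0.20 in wild-type B cells, 0.40 in transgenic B cells and 0.98 in MM. In MM it reached 2.98, and large mean differences with a wide spread, such as those of Cd79a and Ms4a1, did not pass the test for that comparison. Arrays 1 and 2 lay apart from arrays 3 to 5 for 17 members in wild-type B cells (10 above, 7 below). In transgenic B cells they did so for 20 (17 above, 3 below). The share of all named genes split in this way was not counted, so these counts cannot be read as a trait of the members. No label says whether the numbers mark a day or a batch. Within replicates 1 and 2 alone, Fyn was higher (log2 1.10) and Siglecg lower (log2 -0.91). Within replicates 3 to 5 alone, Fyn was again higher (log2 0.95) and 6 members were lower, with Siglecg at -1.29. This split was chosen after seeing the data. Of all probe sets, 415 of 20966 were lower within replicates 1 and 2 alone and 262 of 20220 within replicates 3 to 5 alone. In the fit of all replicates, 99 of 20596 were lower. Taking the replicate number as a block left Fyn and Siglecg past the test in limma and added Cd72 (adjusted p = 0.00838) and Blk (adjusted p = 0.00747), 3 lower members in all. With the block, 0.402% of the 10436 named genes were lower and 3.75% higher.

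Genes of other cell types moved with the same groups. Of 17 T cell genes, 12 were higher in transgenic than in wild-type B cells, and their summed intensity ran from 2815 to 3007 in wild-type, from 10116 to 13780 in transgenic B cells and from 2096 to 8076 in MM. In the same comparison 8 of 12 NK cell genes, 8 of 12 tested neutrophil genes, 7 of 20 tested macrophage genes and 3 of 12 tested erythroid genes were higher, with no gene of these lists lower. The summed neutrophil level ran from 1370 to 2195, from 10909 to 34469 and from 1712 to 85367 in the 3 groups, and the erythroid one from 1599 to 2271, from 3151 to 16022 and from 2378 to 58771. The NK cell sums ran from 1681 to 2298, from 5791 to 8072 and from 1619 to 7828, and the macrophage sums from 4817 to 7809, from 10615 to 19823 and from 13383 to 50279. Stromal genes summed to between 711 and 1032, between 832 and 1160, and between 6659 and 21483, with 9 of 14 higher in MM than in transgenic B cells and 11 of 14 higher than in wild-type B cells. Of the other lists in the comparisons of MM, 2 NK cell genes were lower and 1 macrophage gene higher and 1 lower than in transgenic B cells, and 5 macrophage genes were higher and 1 T cell gene lower than in wild-type B cells.

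The T cell marker Cd3d lay between 57.8 and 81.1 in wild-type and between 968 and 1496 in transgenic B cells. In MM it was at 566, 755 and 866 in replicates 1 to 3 and at 33.1 to 54.5 in replicates 4 to 6. The erythroid gene Alas2 and the neutrophil gene S100a8 stood at 6037 and 12588 in MM replicate 4 and at 6599 and 12292 in replicate 5, against at most 92.0 and 443.5 in the other MM arrays. Alas2 was at 4045 in transgenic B cell replicate 3, against at most 558.8 in the other 4. The macrophage gene Lyz2 ran from 370 to 722 in wild-type B cells, from 1621 to 4273 in transgenic B cells and from 1687 to 9522 in MM. The stromal gene Col1a1 ran from 117 to 285, from 100 to 182 and from 177 to 393. Unlike the stromal sums, its MM values overlapped those of wild-type and transgenic B cells. The plasma cell marker Sdc1 ran from 141 to 246 in wild-type B cells, from 163 to 389 in transgenic B cells and from 110 to 264 in MM, and of 11 tested plasma cell genes none was higher in any comparison, with Irf4 lower in MM than in wild-type B cells. The B cell factor Pax5 was at 257 to 492, 91.5 to 271 and 35.2 to 121. In bulk RNA, fewer B cells and less RNA per B cell cannot be told apart, and the part of these other cells in the differences below was not tested.

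Of 24 measured genes of mature B cells that lie outside the receptor pathway, 1, 7 and 12 were lower in the 3 comparisons, with none higher and median log2 differences of -0.66, -1.93 and -2.70. The 9 members that belong mainly to the B lineage (Cd79a, Cd79b, Ms4a1, Cd22, Cd72, Siglecg, Blk, Blnk and Bank1) had medians of -0.74, -1.95 and -2.91, with 1, 2 and 4 lower by the test. The 22 members that other blood cells also express had medians of -0.20, -0.59 and -0.95, with 0, 0 and 4 lower. The B lineage members were below 0 in all 3 comparisons and lay below every wild-type array on every MM array.

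**Figure D2:**
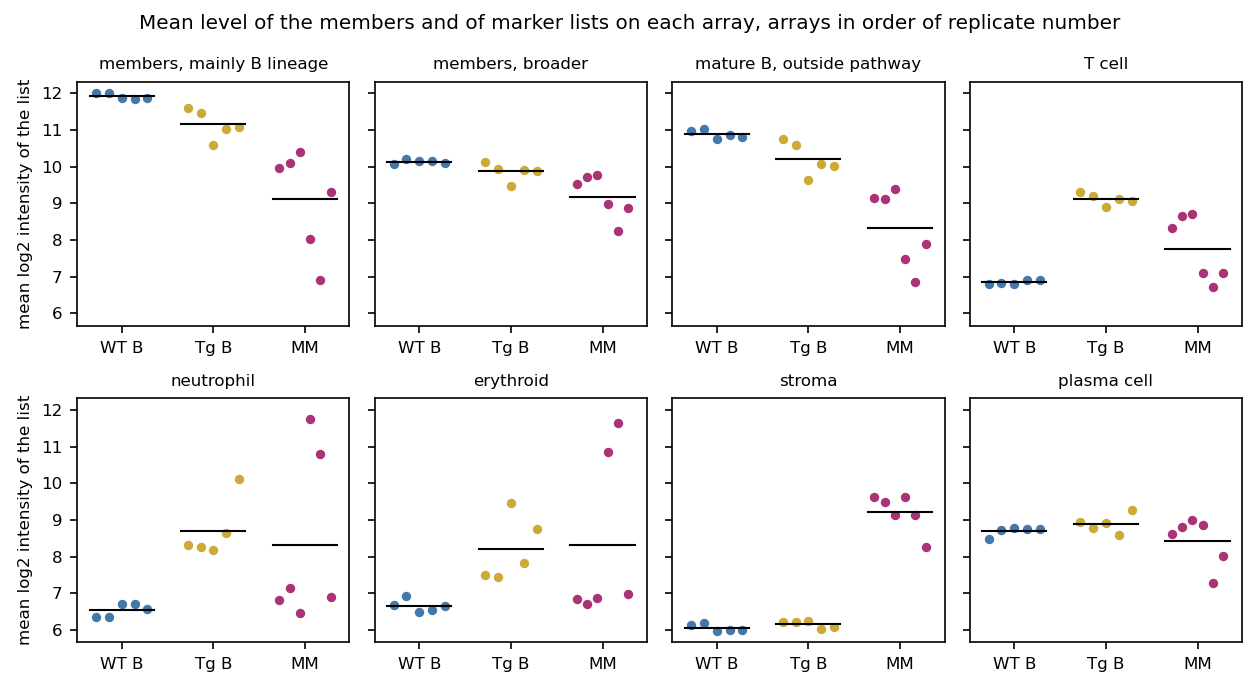
Mean log2 intensity (floor 50) of the 9 mainly B lineage members, the 22 broader members and 6 marker lists, with 1 point per array in order of replicate number and the group mean as a line. The B lineage members and the mature B cell genes outside the pathway step down from wild-type to transgenic B cells to MM, the T cell list is highest in transgenic B cells, and MM arrays 4 and 5 hold the highest neutrophil and erythroid levels.

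Promoter sequence was searched for every member with a window used here, whether or not its level differed between groups. RefSeq promoter windows of the mouse build GRCm38.p6 were used for 26 of the 31 members (35 windows). The 250 bases before each start were searched on both strands. Cd79b, Ms4a1, Blk, Malt1 and Nfatc1 were not searched. The letters AGGAAGT (reverse complement ACTTCCT), a form of the motif bound by ETS factors such as the B lineage regulator Spi1, stood before 13 of these 26 members, in 14 of 35 windows, where 7.69% of all 32851 windows hold them. Of the 6 members with a window that were lower in MM than in wild-type B cells, 2 held the letters, as did 11 of the 20 that did not pass. The octamer ATGCAAAT (1.6% of all windows) was found before Blnk alone among the members searched. The letters TGACGTGG, an element that XBP-1s can bind in reporter constructs, were found before no member searched (0.563% of all windows). The shorter ACGTGG (6.91%), which lies within them, stood before Cd37, Pik3ap1, Plcg2 and Pik3cd. Each match describes these letters only. The last 200 bases before the start are printed for a signal chain, for 3 members lower in MM and for Fyn, the only member higher in transgenic B cells, with the ETS-type letters in capitals. They begin 55 bases before the start in Cd79a, 49 in Cd72 and 25 in Cd37, and are not in the windows of Bank1 and Fyn. The stretches are chr7:24897297-24897496 on the plus strand for Cd79a, chr4:43454627-43454826 on the minus strand for Cd72, chr7:45238840-45239039 on the minus strand for Cd37, chr3:136326067-136326266 on the minus strand for Bank1 and chr10:39369599-39369798 on the plus strand for Fyn, each written 5′ to 3′ in the direction of the gene.
Cd79a: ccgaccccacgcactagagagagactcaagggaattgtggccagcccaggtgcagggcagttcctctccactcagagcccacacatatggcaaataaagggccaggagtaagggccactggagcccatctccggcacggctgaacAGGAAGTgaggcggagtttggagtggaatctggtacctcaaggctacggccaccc
Cd72: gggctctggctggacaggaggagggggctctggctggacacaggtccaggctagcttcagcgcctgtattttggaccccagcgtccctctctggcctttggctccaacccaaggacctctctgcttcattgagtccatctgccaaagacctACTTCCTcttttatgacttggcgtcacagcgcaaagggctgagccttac
Cd37: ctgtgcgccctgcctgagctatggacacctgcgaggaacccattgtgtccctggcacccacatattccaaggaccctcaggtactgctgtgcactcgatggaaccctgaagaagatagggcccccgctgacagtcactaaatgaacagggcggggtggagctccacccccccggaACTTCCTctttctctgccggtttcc
Bank1: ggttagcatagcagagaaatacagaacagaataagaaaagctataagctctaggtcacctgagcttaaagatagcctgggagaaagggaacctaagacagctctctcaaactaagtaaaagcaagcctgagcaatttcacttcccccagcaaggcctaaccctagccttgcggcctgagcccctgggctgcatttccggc
Fyn: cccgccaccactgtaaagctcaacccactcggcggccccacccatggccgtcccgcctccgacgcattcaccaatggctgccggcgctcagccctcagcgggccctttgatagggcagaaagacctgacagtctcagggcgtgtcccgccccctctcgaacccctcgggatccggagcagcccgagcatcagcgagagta

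Cd79a and Cd79b, the 2 signal chains, were lower in transgenic B cells on every array, with neither past the test. Cd79a stood at 7662, 6939, 6241, 6421 and 6961 in wild-type B cells and at 5550, 5387, 2777, 3550 and 3794 in transgenic B cells. In MM it ran from 62.8 through a median of 2423 to 3346. No transgenic or MM array reached the wild-type range, and the 2 lowest MM arrays were replicates 4 (422) and 5. The log2 differences from wild-type were -0.75 in transgenic B cells (SE 0.19, limma adjusted p = 0.0341) and -2.70 in MM (SE 0.88, adjusted p = 0.0471). Without MM replicates 4 and 5, Cd79a passed against wild-type B cells at log2 -1.35 (limma adjusted p = 0.000281). No label sets these 2 arrays apart, and leaving out the lowest values narrows the spread.

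Cd79b stood at 6543, 5968, 6189, 6074 and 6859 in wild-type and at 5076, 4857, 2496, 3483 and 3589 in transgenic B cells, and ran from 37.8 through 1461 to 2163 in MM. The 3 groups did not overlap: every MM array lay below every transgenic B cell array, and those below every wild-type array. The log2 difference was -0.74 (SE 0.18, limma adjusted p = 0.0311) in transgenic against wild-type B cells and -3.34 (SE 0.89, adjusted p = 0.0192) in MM against wild-type B cells. Without MM replicates 4 and 5, again the lowest MM arrays, it was -1.91 and passed (adjusted p = 6.13e-05). It also passed with all 3 groups in a single limma fit (adjusted p = 0.00495).

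Ms4a1, which encodes the CD20 surface protein, stood at 7072, 6225, 7905, 6686 and 7685 in wild-type B cells and at 5094, 5000, 3397, 4351 and 5227 in transgenic B cells. In MM it was at 5531, 5485 and 3497 in replicates 1 to 3 and at 118, 60.3 and 239 in replicates 4 to 6. The first 3 MM arrays thus lay at or above the lowest transgenic B cell array, and the other 3 more than an order of magnitude below it. Neither the difference in transgenic B cells (log2 -0.64, SE 0.15, limma adjusted p = 0.021) nor that of MM from wild-type (log2 -3.24, SE 1.16, adjusted p = 0.0654) passed.

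Cd37, a tetraspanin of mature B cells, was 8.60-fold lower in MM than in wild-type B cells. It stood at 3470, 3522, 2458, 2637 and 2632 in wild-type, at 2763, 2386, 571, 1082 and 1191 in transgenic B cells, and between 25.9 and 712 in MM with a median of 631. Every MM array lay below every wild-type array, and replicates 1 and 2 of the transgenic B cells lay well above replicates 3 to 5. The call in MM (log2 -3.10, SE 0.62, limma adjusted p = 0.00471) was lost without any of the 5 wild-type replicates (adjusted p from 0.0118 to 0.0154), without MM replicate 4 (adjusted p = 0.011), with a floor of 16 (0.0108) and with no filter on low values (0.0283). The probe sets of Cd37 had the same direction and similar log2 differences, but fell on different sides of the threshold. The dimmer one passed in transgenic against wild-type B cells (log2 -1.01, limma adjusted p = 0.000843), where the brighter did not (log2 -1.09, adjusted p = 0.109), and missed the threshold in MM against wild-type B cells (log2 -2.71, adjusted p = 0.0103).

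Cd81, a tetraspanin found on many cell types, ran from 1951 to 2586 in wild-type, from 1911 to 2412 in transgenic B cells and from 1481 through 1905 to 4109 in MM. The groups overlapped, and its log2 differences lay between -0.08 and 0.02 in the 3 comparisons, with a 95% interval of -0.57 to 0.44 in MM against wild-type B cells. The highest value was MM replicate 4.

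**Figure D3:**
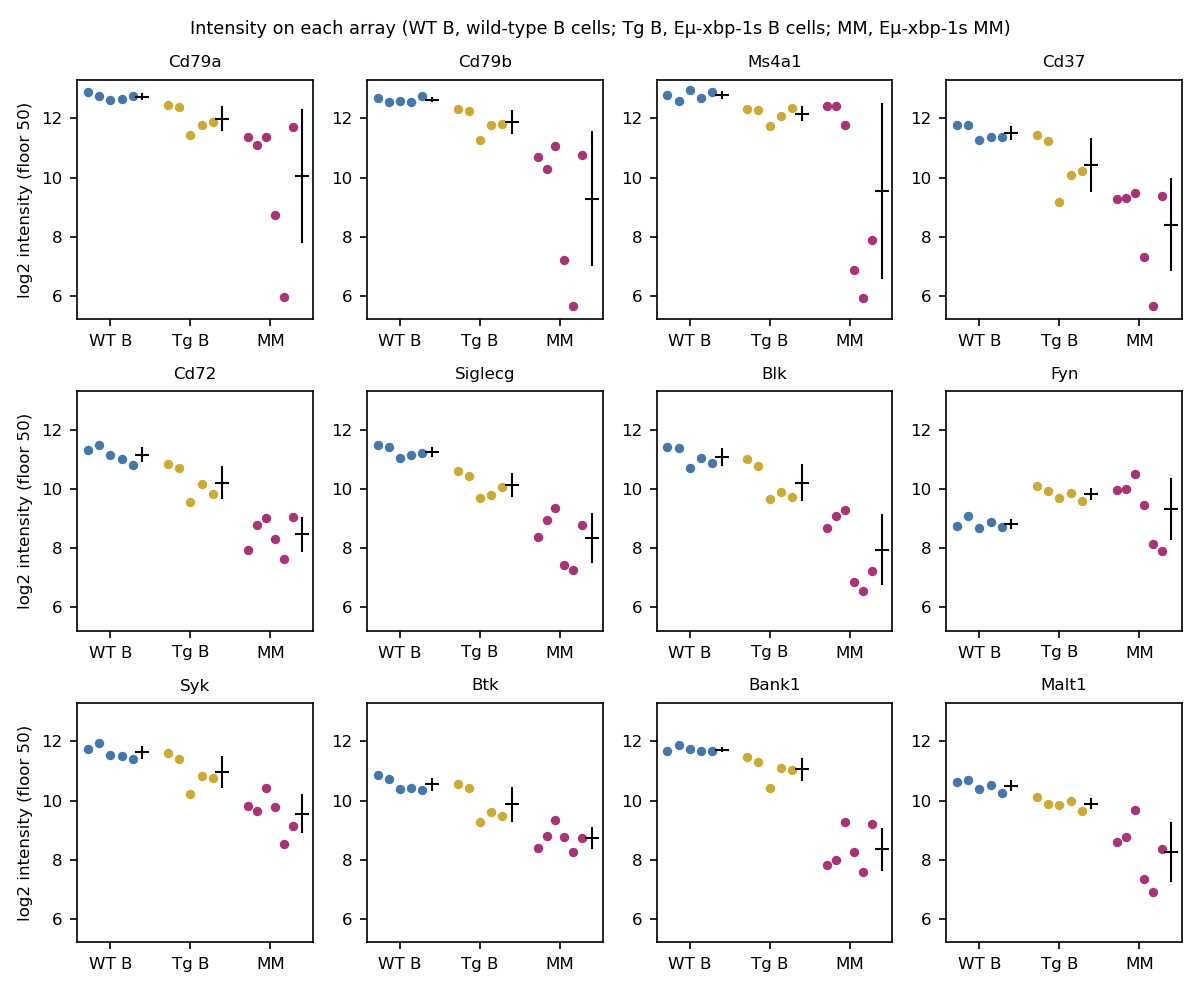
Log2 intensity (values under 50 set to 50) on each array, in order of replicate number, for Cd79a, Cd79b, Ms4a1 and the 9 members that passed the test in a comparison, with the group mean and standard deviation to the right of the points. Bank1, Cd72 and Siglecg in MM sit below all B cell arrays, while Ms4a1 splits the MM arrays into 3 near the B cells and 3 far below.

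The 4 inhibitory receptors all had log2 differences below 0 in the 3 comparisons, and Siglecg and Cd72 passed the test. Siglecg, a sialic acid-binding receptor that recruits phosphatases, stood at 2854, 2720, 2142, 2249 and 2390 in wild-type B cells and at 1581, 1392, 822, 888 and 1087 in transgenic B cells. In MM it ran from 152 through 387 to 655. The 3 groups did not overlap. It was 2.20-fold lower in transgenic than in wild-type B cells (log2 -1.14, SE 0.19, limma adjusted p = 0.00302) and 7.50-fold lower in MM than in wild-type B cells (log2 -2.91, SE 0.35, adjusted p = 0.000192). MM against transgenic B cells missed the threshold (log2 -1.77, SE 0.38, adjusted p = 0.0122). The call in transgenic B cells sat close to the threshold: it was lost without wild-type replicate 1, 2 or 5 or transgenic replicate 4 (adjusted p from 0.0103 to 0.0117), with no filter on low values (0.0216) and with all 3 groups in a single limma fit (0.128).

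Cd72, a coreceptor with an inhibitory motif in its cytoplasmic tail, stood at 2543, 2878, 2249, 2089 and 1804 in wild-type B cells, at 1842, 1667, 753, 1149 and 902 in transgenic B cells, and between 199 and 528 in MM, with a median of 381. Every MM array lay below every B cell array. In transgenic against wild-type B cells the log2 difference was -0.94 (SE 0.24, limma adjusted p = 0.0397), which did not pass, and with the replicate block it did (SE 0.16, adjusted p = 0.00838). MM was lower by 3.37-fold against transgenic B cells (log2 -1.75, SE 0.32, limma adjusted p = 0.00608) and 6.47-fold against wild-type B cells (log2 -2.69, SE 0.27, adjusted p = 4.76e-05). The second call held in all alternatives tried. The first was lost with no filter (adjusted p = 0.0284), with the replicate block (0.0164), without MM replicates 4 and 5 (0.0187) and without any 1 of transgenic replicates 1, 2, 4 and 5 or MM replicates 1, 2 and 4 (0.0106 to 0.0206).

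Cd22, another sialic acid-binding inhibitor, ran from 4020 to 4635 in wild-type and from 1806 to 3610 in transgenic B cells without overlap, and did not pass (log2 -0.71, limma adjusted p = 0.037). In MM it was at 3062, 2861 and 3154 in replicates 1 to 3 and at 473, 316 and 375 in replicates 4 to 6, the same 3 and 3 as for Ms4a1. Fcgr2b, the inhibitory IgG receptor that myeloid cells also carry, ran from 1515 to 2168, from 990 to 1653 and from 290 through 727 to 2148, with its highest MM value in replicate 4. Its difference in MM from wild-type B cells was -1.26 on the log2 scale (SE 0.40, limma adjusted p = 0.0392), and without MM replicate 4 it was -1.55 and passed (adjusted p = 0.00695).

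None of the 3 phosphatases passed by its brightest probe set. Ptprc encodes CD45, whose B220 form on B cells was the handle of the bead selection for both B cell groups. It ran from 5061 to 5651 in wild-type, from 4335 to 5619 in transgenic B cells and from 1153 through 3294 to 5088 in MM, where replicates 4 to 6 were the lowest (2368, 1232 and 1153). The log2 difference of MM from wild-type B cells was -0.99 (SE 0.39, limma adjusted p = 0.0919), and the dimmer of its probe sets passed (log2 -1.86, adjusted p = 0.00896).

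Ptpn6 encodes SHP-1, which inhibitory receptors recruit, and lay below every wild-type array in MM (108 to 1177, median 688, against 1809 to 2937), with a log2 difference of -2.19 (SE 0.57, limma adjusted p = 0.0171) for the brightest probe set and a passing -1.47 (adjusted p = 0.00649) for the other. Inpp5d encodes the lipid phosphatase SHIP-1 and overlapped between all groups, at 1246 to 1969, 1084 to 1955 and 461 to 1627, with a log2 difference of 0.02 in transgenic against wild-type B cells (95% interval -0.38 to 0.42).

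Among the 4 kinases measured, Blk, Syk and Btk were lower in MM than in wild-type B cells, and Fyn was higher in transgenic than in wild-type B cells. Blk, a Src family kinase found mainly in B cells, stood at 2746, 2676, 1668, 2143 and 1889 in wild-type, at 2054, 1754, 810, 965 and 858 in transgenic B cells and between 92.9 and 620 in MM (median 279). Every MM array lay below every B cell array. In transgenic against wild-type B cells the log2 difference was -0.87 (SE 0.27, limma adjusted p = 0.0856), and it passed with the replicate block (SE 0.15, adjusted p = 0.00747). The difference in MM was 8.88-fold against wild-type (log2 -3.15, SE 0.49, limma adjusted p = 0.00102) and missed the threshold against transgenic B cells (log2 -2.28, SE 0.52, adjusted p = 0.0175).

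Syk, the kinase that docks on the phosphorylated signal chains, stood at 3466, 3937, 2976, 2893 and 2714 in wild-type and at 3129, 2725, 1205, 1802 and 1747 in transgenic B cells, and ran from 370 through 845 to 1374 in MM. MM lay below wild-type on every array, 4.20-fold on average (log2 -2.07, SE 0.28, limma adjusted p = 0.000428), and all 4 probe sets of Syk passed in that comparison. In transgenic against wild-type B cells its brightest probe set did not pass (log2 -0.66, adjusted p = 0.137), and 1 of the 4 did (log2 -1.15, adjusted p = 0.00307).

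Btk, the Tec family kinase mutated in X-linked agammaglobulinemia, stood at 1850, 1690, 1340, 1368 and 1308 in wild-type and at 1525, 1374, 621, 776 and 714 in transgenic B cells. In MM it kept within 309 to 644 (median 431), and its standard deviation on the log2 scale, 0.37, was the lowest there among the 8 members that passed against wild-type B cells. MM was 3.55-fold below wild-type (log2 -1.83, SE 0.20, limma adjusted p = 7.54e-05) with no overlap, and 2.22-fold below transgenic B cells (log2 -1.15, SE 0.28, adjusted p = 0.0209), which did not pass.

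Fyn, a Src family kinase of T cells and other cells, went the other way. It stood at 433, 543, 415, 478 and 417 in wild-type B cells and at 1090, 984, 828.8, 936 and 768 in transgenic B cells, with every transgenic array above every wild-type array. The difference was 2.01-fold (log2 1.01, SE 0.14, limma adjusted p = 0.000615), and both probe sets of Fyn passed. It was lost as a call when all 3 groups shared a single limma fit (adjusted p = 0.298), in which the wide spread of MM enters. In MM, Fyn was at 995, 1018 and 1442 in replicates 1 to 3 and at 707, 282 and 241 in replicates 4 to 6, and the 3 arrays with the highest Fyn were the 3 with the highest Cd3d. The part of T cells in the Fyn level was not tested.

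**Figure D4:**
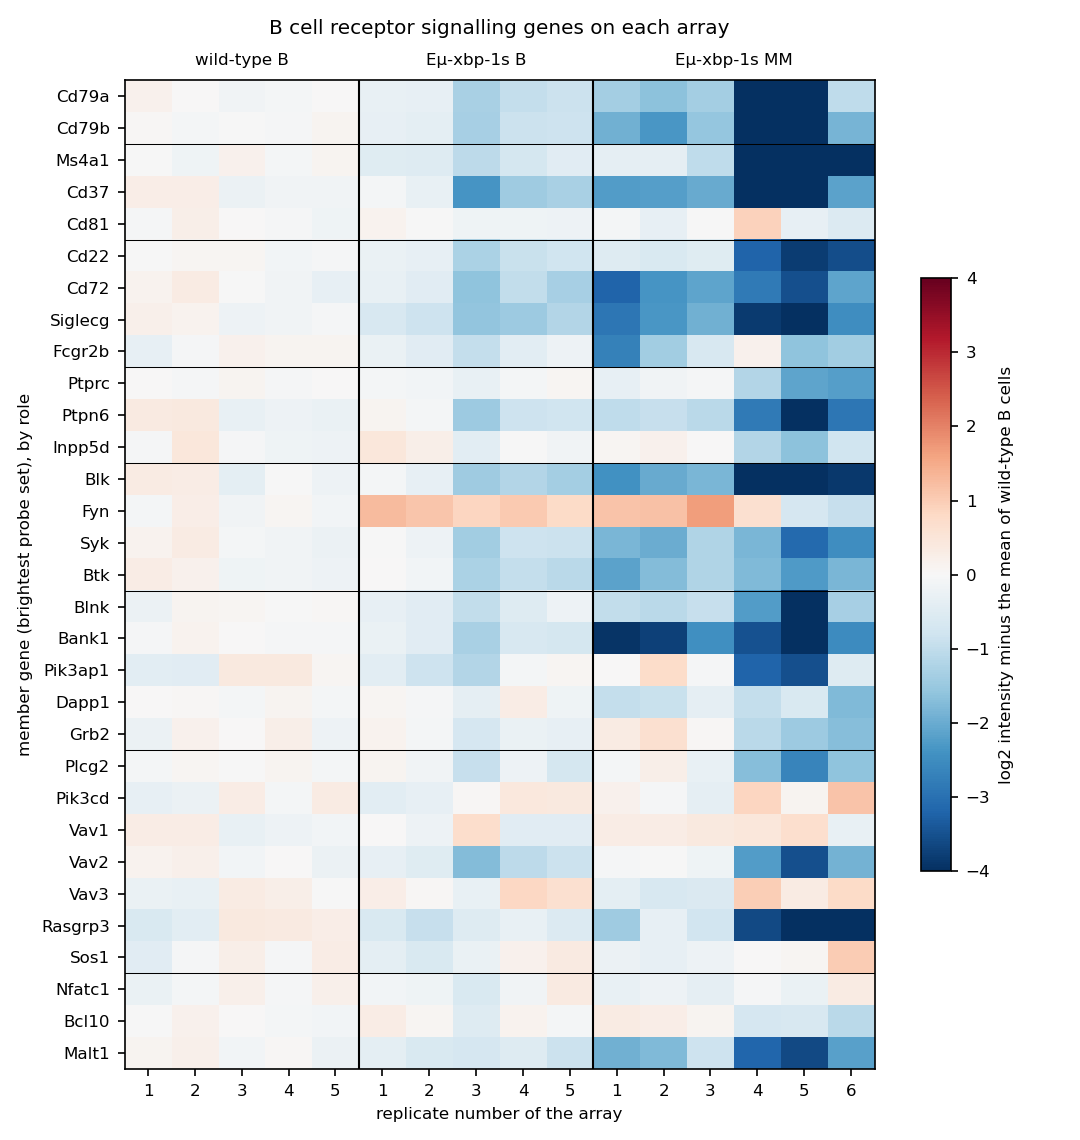
Log2 intensity of each of the 31 members (rows, grouped by role) on each of the 16 arrays (columns, by group and replicate number), as the difference from the mean of the wild-type B cells, with the colour scale ending at -4 and 4. Fyn is the only row that is red across the transgenic B cells, MM arrays 4 and 5 are the darkest columns for Cd79a and Cd79b, and the brightest probe sets of Pik3cd, Sos1 and Vav1, which are those plotted, stay near 0 or above it in MM, while the other tested probe sets of Pik3cd and Vav1 had mean differences below 0.

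Of the 5 adaptors, Bank1 passed the test. Bank1, a scaffold that ties Src kinases to calcium release in B cells, stood at 3307, 3752, 3394, 3250 and 3265 in wild-type and at 2834, 2500, 1369, 2185 and 2074 in transgenic B cells. In MM it ran from 192 through 280 to 619, and the 3 groups did not overlap. MM was 6.51-fold below transgenic B cells (log2 -2.70, SE 0.33, limma adjusted p = 0.000786) and 10.4-fold below wild-type B cells (log2 -3.37, SE 0.30, adjusted p = 2.56e-05), and both calls held in all alternatives tried. In transgenic against wild-type B cells it did not pass (log2 -0.67, SE 0.18, adjusted p = 0.0435). The low MM values of Bank1 included replicates 1 and 2 (224 and 255), in which Ms4a1 and Cd22 lay within or above the range of the transgenic B cells.

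Blnk, the central adaptor that brings Btk to Plcg2, ran from 3136 to 3926 in wild-type and from 1826 to 3154 in transgenic B cells. In MM it lay between 1446 and 1944 in 4 arrays, at 770 in replicate 4 and at 154.5 in replicate 5, all below every wild-type array. The difference of MM from wild-type B cells was -1.85 on the log2 scale (SE 0.56, limma adjusted p = 0.0333). It passed at -1.31 without MM replicate 5 (adjusted p = 0.00323) and at -1.08 without replicates 4 and 5 (adjusted p = 0.000686).

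Dapp1, a PI3-kinase-dependent adaptor, ran from 274 to 315 in wild-type, from 227.5 to 361 in transgenic B cells and from 86.2 through 155 to 229 in MM, all MM arrays below wild-type, at log2 -0.92 (SE 0.21, limma adjusted p = 0.0103). It passed with a floor of 100 (adjusted p = 0.00648), a pseudocount of 50 (0.00769), median scaling (0.00525), a single fit of 3 groups (0.00351) and without MM replicate 3 (0.00392) or 6 (0.00376). Pik3ap1, which links coreceptors to PI3-kinase, and Grb2, a general adaptor, overlapped between all groups. In MM replicates 1 to 3, Grb2 was at 1506, 1853 and 1219 against 1010 to 1411 in wild-type B cells, and in replicates 4 to 6 at 562, 433 and 363.

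None of the 7 effector enzymes and exchange factors passed. Plcg2, the phospholipase that generates the calcium signal, ran from 1446 to 1651 in wild-type, from 809 to 1658 in transgenic B cells and from 249 through 878 to 1821 in MM, with replicates 1 to 3 at 1466, 1821 and 1256. Its log2 difference of MM from wild-type B cells was -1.01 (SE 0.45, limma adjusted p = 0.131). Rasgrp3, a Ras exchange factor that responds to diacylglycerol, ran from 855 to 1708, from 686 to 1054 and from 30.5 through 296 to 1031, and differed by -2.57 on the log2 scale between MM and wild-type B cells (SE 0.78, adjusted p = 0.0354). Its lowest MM arrays were replicates 4 to 6 (106, 53.1 and 30.5).

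Vav2, a guanine nucleotide exchange factor, ran from 646 to 876 in wild-type and from 229 to 615 in transgenic B cells without overlap (log2 -0.90, SE 0.24, limma adjusted p = 0.0405). In MM replicates 1 to 3 it was at 741, 752 and 676, inside the wild-type range and above all transgenic B cell arrays, and in replicates 4 to 6 at 162, 66.6 and 208.5. The related Vav1 ran from 306 to 463, from 275 to 612 and from 302 through 478 to 597, and Vav3 from 112 to 171, from 111 to 240 and from 87.3 through 138 to 268. Pik3cd, the catalytic PI3-kinase subunit of leukocytes, ran from 983 to 1551, from 921 to 1658 and from 964 through 1353 to 2708. Sos1, the general Ras exchange factor, ran from 421 to 717, from 380 to 744 and from 459 through 545 to 1174. These 4 genes overlapped between all groups, with log2 differences in MM from wild-type B cells of 0.30, 0.08, 0.31 and 0.05 and upper 95% limits of 0.72, 0.75, 0.89 and 0.58. These are the brightest probe sets, and the direction turned with the probe set for Pik3cd and Vav1. The other 3 tested probe sets of Pik3cd lay at log2 -1.15, -1.18 and -1.41 in MM against wild-type B cells (limma adjusted p = 0.0943, 0.0731 and 0.0744), and the other one of Vav1 at -0.72 (adjusted p = 0.332), none past the test. Tested probe sets of a gene lay on both sides of 0 in 13 differences of 8 members, and no probe set passed in any of these.

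Of the 3 outputs measured, Malt1 passed. Malt1, the protease of the complex that carries the signal to NF-κB, stood at 1569, 1672, 1349, 1488 and 1227 in wild-type, at 1108, 954, 921, 1013 and 802 in transgenic B cells and between 119 and 816 in MM (median 356). Its groups did not overlap between the B cells, nor between MM and wild-type B cells. The brightest probe set was 4.72-fold lower in MM than in wild-type B cells (log2 -2.24, SE 0.41, limma adjusted p = 0.00279), a call lost with no filter on low values (0.0178), and all 3 probe sets passed there. In transgenic against wild-type B cells 1 of the other probe sets passed (log2 -0.88, adjusted p = 0.00743) while the brightest did not (log2 -0.61, adjusted p = 0.0167), and in MM against transgenic B cells the remaining one passed (log2 -1.96, adjusted p = 0.00569).

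Bcl10, the partner of Malt1, overlapped between all groups, at 1890 to 2282, 1418 to 2492 and 958 through 1749 to 2586, with a log2 difference of -0.28 in MM from wild-type B cells (95% interval -0.84 to 0.28). Nfatc1, the calcium-dependent transcription factor, showed disagreement between its probe sets. The brightest ran from 708 to 986, from 562 to 1097 and from 669 through 729 to 1068 (log2 -0.14 in MM from wild-type B cells, limma adjusted p = 0.559), while 2 of its 4 tested probe sets were lower in MM (log2 -1.80, adjusted p = 0.00426, and -1.62, adjusted p = 0.00985). The mean of its probe sets passed as well (log2 -1.06, adjusted p = 0.00535). The probe set at log2 -1.80 was brighter than the chosen one in wild-type (mean 945 against 862) and transgenic B cells (1004 against 796). In MM it was dimmer (311 against 784), and the MM arrays thus decided which one counted as brightest.

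The MM arrays differed in which members they held. Of the 31 members, 20, 19 and 21 lay below every wild-type array in MM replicates 1 to 3, and 23, 26 and 27 in replicates 4 to 6. Of the 11079 named genes tested, 28.1%, 24.2% and 19.8% did so in replicates 1 to 3 and 40.1%, 44.9% and 47% in replicates 4 to 6. Against the transgenic B cells, the members' counts were 14, 14 and 7, and 24, 26 and 23, where 23%, 18.2% and 12.3%, and 30%, 36.8% and 41.9% of 11241 named genes lay below. By brightest probe set, replicates 1 to 3 held Ms4a1, Cd37, Cd22, Ptpn6, Inpp5d, Fyn, Pik3ap1 and Grb2 at or above the lowest transgenic B cell array. The same held for Plcg2, Pik3cd, Vav1, Vav2, Sos1, Nfatc1 and Bcl10. Cd79a, Cd79b, Cd72, Siglecg, Blk, Bank1 and the dim Vav3 lay below every B cell array in these 3 replicates. Replicate 6 held Cd79a at 3346 and Cd79b at 1757, each the highest or second-highest of the MM arrays, with Ms4a1 at 239, Cd22 at 375 and Rasgrp3 at 30.5. Replicates 4 and 5, the arrays with high Alas2 and S100a8, held Cd79a at 422 and 62.8. Without these 2 arrays, which no label sets apart, 11 members were lower in MM than in wild-type B cells, and 1, Bank1, than in transgenic B cells. Of all probe sets tested, 979 of 22442 and 272 of 22941 were lower there. With all MM arrays these were 1236 of 21894 and 423 of 22194.

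Other genes of the pathway were read from a separate list. Of 76 listed, 64 were named on the array and 63 tested: 2 were higher and 0 lower in transgenic against wild-type B cells, 0 higher and 1 lower in MM against transgenic B cells, and 1 higher and 9 lower in MM against wild-type B cells. At an unadjusted p under 0.05, 10 were lower and 10 higher in the first comparison, 25 lower and 0 higher in the second, and 25 lower and 4 higher in the third, to be read against the shares of all named genes at that level given above. Their median log2 differences were -0.02, -0.46 and -0.39. The higher genes were Cd5, a negative regulator on T cells and a B cell subset that the T cell list also holds (log2 2.96, SE 0.18, limma adjusted p = 9.02e-07), and Ifitm1, an interferon-induced membrane protein (log2 2.51, SE 0.21, adjusted p = 1.05e-05), which was higher in MM than in wild-type B cells too (log2 2.88, SE 0.42, adjusted p = 0.000717). Ppp3ca, a catalytic subunit of calcineurin, was lower in MM than in transgenic B cells (log2 -1.30, SE 0.24, adjusted p = 0.00645). The 4 largest decreases in MM from wild-type B cells were those of Prkcb, the protein kinase C of the NF-κB branch (log2 -2.18, SE 0.35, adjusted p = 0.00127), Stap1, an adaptor (log2 -2.09, SE 0.19, adjusted p = 3.39e-05), Dok3, an inhibitory adaptor (log2 -1.94, SE 0.42, adjusted p = 0.00729), and Sh3bp2, an adaptor that binds Syk (log2 -1.73, SE 0.34, adjusted p = 0.00401).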

How the data were processed

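Each deposited value is the linear intensity of a probe set on an Affymetrix 430 2.0 array. Per the methods, the authors used dChip to scale every array to one of median brightness and to fit a model-based signal in which mismatch is subtracted from perfect match. Low values are therefore unreliable: the lowest is 1, at which 0.764% of the values stand. Array medians ran from 70.8 to 73.0 in wild-type B cells, 69.0 to 73.5 in transgenic B cells and 69.3 to 82.9 in MM, and the share of values above 100 per array was 39.1% to 44.7%. The number of arrays limits the precision.

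Genes were named from the platform annotation, which pairs 34958 of 45101 probe sets with 1 gene (34754 of these were brought to a current symbol through the gene identifier), 932 with several and 9211 with none. The 64 control probe sets did not enter. Intensities below 50 were raised to 50. A probe set entered a comparison if over 20% of its arrays exceeded 100. limma 3.58.1 under R 4.3.3 (lmFit, then eBayes) compared log2 values for each pair of groups in a fit of its own, and calls were made at a Benjamini-Hochberg adjusted p under 0.01. It took the place of the SAM of the methods, whose presence calls and standard deviation filter were not applied. The code was tested on simulated data. Tables used Python 3.11.15 with pandas 2.3.3 and numpy 2.4.6, plots matplotlib 3.10.9.

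The members and lists were chosen with earlier results of these data known. All members are described, in full where one passed or where its probe sets disagreed (probe sets that differed in sign with no call are given for Pik3cd and Vav1 and otherwise as a count). Up to 4 of the other pathway genes per direction and comparison are named. For marker lists (mature B cell, plasma cell, T cell, NK cell, neutrophil, macrophage and monocyte, erythroid, stroma) counts, sums and defining genes are given. Replicate numbers recur between groups, and no source used here says what they mark. Same-numbered wild-type and transgenic arrays deviated together from the means of their groups (r of 0.512, 0.527, 0.218, 0.176 and 0.512 over probe sets). As every r exceeded 0.1, a fit that takes them as pairs was also run. Wild-type replicates 1 and 5 correlated best with the transgenic array of their own number, and replicates 2, 3 and 4 with another one. Whether the numbers mark pairs is thus not settled. The values given are from the fit without pairs. Those with the replicate number as a block stand beside them where a call changed. The tried alternatives comprised a floor of 16 or of 100, adding 50 in place of a floor, no filter, quantile normalization, median scaling, a trended and robust variance, a single fit of the 3 groups, a threshold of 0.05, the replicate block, averaging the probe sets of a gene, leaving out each array, and leaving out MM replicates 4 and 5. Replicates 1 and 2, or 3 to 5, of the B cells alone were added after seeing the data. MM replicates 4 and 5 are set apart by no label, only by their values, such as those of Alas2 and S100a8. They also hold the lowest Cd79a, Cd79b and Blnk levels of MM, so p-values without them rest on a subset read from the data.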

Additional observations from a re-analysis of the deposited data

Results flagged for a closer look

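In 4 of the 93 combinations of a member and a group, 1 array lay far from the others of its group, on the log2 scale and by Dixon's 95% limits, which chance exceeds in about 1 of 20 groups. Cd81 stood at 4109 in MM replicate 4, above the other MM arrays. Inpp5d stood at 1969 in wild-type B cell replicate 2, above the other wild-type arrays. Blnk stood at 154.5 in MM replicate 5, below the other MM arrays, and Sos1 at 1174 in MM replicate 6, above the others.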

How the results depend on the processing

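No member was higher in MM in either comparison under any alternative, and Fyn stayed higher in transgenic than in wild-type B cells except with all 3 groups in a single fit, where the higher count was 0. The lower member count of that comparison went from 1 to 0 with no filter and with the single fit, 3 with quantile normalization and 2 with trend and robust variance. It was 9 at an adjusted p under 0.05, 2 with probe sets averaged per gene and 6 in replicates 3 to 5 alone (chosen after seeing the data). With an array left out it was 0 to 1. Over all probe sets, the 99 lower calls there became 57 with no filter, 16 with the single fit, 134 with quantile normalization and 96 with trend and robust variance. They became 387 at an adjusted p under 0.05, 262 in replicates 3 to 5 alone and 35 to 107 with an array left out. With probe sets averaged per gene, 32 of 10466 genes were lower. The 2 lower in MM against transgenic B cells became 1 with no filter, 1 without MM replicates 4 and 5, and 6 with median scaling. They became 8 with the single fit, 8 at an adjusted p under 0.05, and 1 to 6 with an array left out. Over all probe sets, the 423 lower calls there became 129 with no filter, 272 without MM replicates 4 and 5, and 762 with median scaling. They became 1143 with the single fit, 1394 at an adjusted p under 0.05, and 136 to 737 with an array left out. The 8 lower in MM against wild-type B cells became 16 at an adjusted p under 0.05, where the lower probe sets went from 1236 to 2724. In the other alternatives the member count moved by less than 1.5 times. With the replicate block, which sets MM replicate 6 aside because no other group has that number, the lower counts were 3, 1 and 8. Those of all probe sets were 159, 120 and 789. Same-numbered arrays did not all deviate together in the comparisons of MM, so the block is given there as a value only.

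Median scaling moved the median log2 difference of all probe sets in MM against wild-type B cells from -0.03 to -0.14, and the calls from 864 higher and 1236 lower to 689 and 2079. Of 2139 log2 differences of members recomputed under the alternatives, 58 changed sign, over 13 members, none of them past the test on either side. Among the differences given in the text, Inpp5d in transgenic against wild-type B cells was -0.28 with the mean of its probe sets, -0.055 in replicates 3 to 5 alone and -0.084 to 0.13 with an array left out. Cd81 in MM against transgenic B cells was -0.041 with quantile normalization, -0.077 with median scaling, -0.16 without MM replicates 4 and 5 and -0.18 to 0.11 with an array left out. In MM against wild-type B cells, Cd81 was 0.031 with the replicate block and -0.26 to 0.031 with an array left out, and the means of the probe sets of Pik3cd and Vav1 were -0.86 and -0.21. Vav3 there was -0.021 with median scaling, -0.060 with the block, -0.21 without MM replicates 4 and 5 and -0.10 to 0.22 with an array left out, and Sos1 was -0.047 with median scaling, -0.14 with the block and -0.14 to 0.13. The cause of these changes was not tested. Values near the floor of 50, as for Cd37, Cd79b and Rasgrp3 in 1 MM array each, have no order below it.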
